A study of Mus musculus with 10 samples.

Results

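The genes described here encode the SR proteins, the heterogeneous nuclear ribonucleoproteins (hnRNPs) and a group of splicing factors and kinases that act in muscle. They were taken as the protein-coding rows of the deposited table whose symbol starts with Srsf or Hnrnp, together with Rbm20, Rbm24, Mbnl1, Mbnl2, Celf1, Celf2, Rbfox1, Rbfox2, Ptbp1, Ptbp2, Clk1 and Clk4, with at least 1 CPM (reads scaled to a total of 1000000 per library) in 5 or more libraries. This gave 42 genes of the 45706 in the table, of which 12350 passed the same limit, namely 10 SR genes, 20 hnRNP genes and 12 muscle factors and kinases. Each of the 42 had at least 1 CPM in all 10 libraries, so none entered through 1 group only. Of 44 protein-coding candidates, Srsf12 and the row with the symbol Srsf3-ps stayed under 1 CPM in every library, and the pseudogene Hnrnpa1l2-ps2 was left out by its type.

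RNA with poly(A) tails was sequenced from left ventricular tissue of mice after transverse aortic constriction (TAC), an operation that narrows the aorta and loads the left ventricle with pressure. All 10 libraries came from such hearts, 5 given placebo (treatment label Vehicle) and 5 given osimertinib, a tyrosine kinase inhibitor of the epidermal growth factor receptor used against lung cancer, so no unoperated heart enters the comparison. The question of the study was the molecular basis of the harm that osimertinib does to the heart. The labels hold no strain, sex, age, dose or time under TAC. They also leave unsaid whether each sample is a different animal, so a p-value reflects only the spread of these samples, which may be technical.

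SR proteins carry domains rich in arginine and serine, bind exonic enhancers and help the spliceosome, the machine that removes introns, to choose splice sites. The Clk kinases (CDC-like kinases) and the SR protein kinases (Srpk) phosphorylate these domains, which sets where in the nucleus SR proteins sit and how they act. hnRNPs coat nascent RNA and often oppose exon inclusion. Several factors tune the programme of the heart: Rbm20 represses exons of titin and other sarcomere and calcium handling genes, Rbm24 and the Rbfox proteins favour muscle exons, and Mbnl and Celf proteins act against each other in the switch from fetal to adult exons. Many SR and hnRNP genes limit their own messenger RNA through exons or retained introns that mark it for decay. The deposited values are per gene, so they hold no exon or isoform and show nothing of which exons were used.

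The total number of reads per library, worked out from the steps between low CPM values, lay between 15863265 and 21309296 reads. Mitochondrially encoded genes and 7 of their nuclear copies took 83.0% of the reads of placebo library 5 and 45.0% to 63.7% of those of the other 9, which lowers the CPM of every other gene in that library. Values were therefore divided by each library's median ratio to the geometric mean library (rescaled CPM, with a divisor of 0.455 for placebo library 5 and 0.926 to 1.34 for the rest), and genes were called with limma at a Benjamini-Hochberg adjusted p under 0.05 over all 12350 genes. Fold changes are on the scale of log2(value + 0.5), osimertinib minus placebo, with the moderated SE. The median over all genes tested was 0.01 rescaled and 0.27 in the deposited CPM, so a deposited value is read against 0.27.

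The libraries also differed in transcripts of atrial muscle, within both groups. Myl7, the atrial myosin light chain gene, stood at 256, 55.5 and 267 rescaled CPM in placebo libraries 1, 2 and 5 and at 267, 309.5 and 1149 in osimertinib libraries 1, 2 and 4, but under 1 in placebo libraries 3 and 4 and osimertinib libraries 3 and 5. Myl4 and Sln divided the libraries in the same way. Results are therefore also given for the 6 libraries with atrial transcripts (3 against 3, Myl7 of at least 10 rescaled CPM), for the 4 without (2 against 2), and with this division as a term in the model, 3 fits chosen after the values were seen. With 2 libraries a group the spread rests on few samples.

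After rescaling, 7 of the 42 genes were called, against 20.8% of all genes tested. Of these, 6 fell under osimertinib, namely the kinase genes Clk1 and Clk4, the SR genes Srsf11, Srsf4 and Srsf9, and the hnRNP gene Hnrnph1, and 1 rose, Rbfox2. Over all genes tested 10.5% were called lower and 10.4% higher, against 14.3% and 2.38% of these genes, so the count of falls lies near that of genes at large. Of the 42 genes 28 had a negative log2 fold change (66.7%, against 48.9% of all genes tested), and their median was -0.07. The SR genes lay lowest, with 10 of 10 negative, 3 called lower and a median of -0.28. The hnRNP genes had 1 of 20 called lower and a median of -0.05, and the muscle factors and kinases had 2 of 12 lower, 1 higher and a median of -0.01. An unadjusted p under 0.05 was found for 10 of the 42 and for 38.3% of all genes. With the deposited CPM limma called no member, where it called 6.74% of all genes (0.13% lower and 6.62% higher). There 2 members had an unadjusted p under 0.05, against 21.6% of all genes, and limma with voom on estimated reads of the rescaled libraries called 5 lower and 1 higher. With the atrial division as a term 7 members were lower (Hnrnph3 was added) and 2 higher (Rbfox1 was added). The 4 libraries without atrial transcripts gave 11 lower (Clk1, Clk4, Srsf3, Srsf4, Srsf6, Srsf7, Srsf9, Srsf11, Hnrnph1, Rbm20 and Ptbp1) and 1 higher (Hnrnpa1), and the 6 with them gave 1 lower (Clk4) and none higher, with 6 members at an unadjusted p under 0.05. Of all 12350 genes tested, the fit with the term called 1931 lower and 2397 higher. The libraries without atrial transcripts gave 1770 lower and 1682 higher of all genes, and those with them 468 and 885. Whether the change differs between these libraries was not tested. The signs differed too in the deposited CPM, with 34 of 42 members positive and a median of 0.21, under the 0.27 of all genes.

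The 80 bases before a transcription start are shown for the genes called lower that have a window in the RefSeq promoter table (GRCm38.p6), where 37 of the 42 genes matched. The windows are chr11:51263034-51263113 for Clk4, chr4:131873557-131873636 for Srsf4, chr5:115327097-115327176 for Srsf9 and chr11:50376910-50376989 for Hnrnph1, all on the plus strand, and chr3:158031749-158031828 on the minus strand for Srsf11, and at most 20 bases of each lie in annotated exons. Those of Clk4, Srsf4 and Srsf11 belong to starts inside the annotated gene. Capitals mark motifs searched on both strands.
Clk4: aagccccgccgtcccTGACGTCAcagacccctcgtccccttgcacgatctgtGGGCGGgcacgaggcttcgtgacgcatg
Srsf11: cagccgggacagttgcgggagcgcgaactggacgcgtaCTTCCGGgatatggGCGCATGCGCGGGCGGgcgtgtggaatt
Srsf4: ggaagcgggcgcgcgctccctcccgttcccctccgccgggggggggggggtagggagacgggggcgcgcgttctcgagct
Srsf9: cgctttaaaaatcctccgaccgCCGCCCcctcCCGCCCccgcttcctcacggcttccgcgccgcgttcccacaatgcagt
Hnrnph1: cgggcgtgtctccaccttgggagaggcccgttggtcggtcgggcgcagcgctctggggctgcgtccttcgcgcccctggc
The window of Clk4 holds a cAMP response element (TGACGTCA), which 0.99% of all 32851 windows of this length hold, and a GC box (GGGCGG, 22.14%). That of Srsf11 holds an ETS site (CCGGAAG, 4.04%) and an NRF1 site (0.47%) that runs into a GC box, and that of Srsf9 holds GC boxes. The windows shown for Srsf4 and Hnrnph1 hold none of the 8 motifs searched. Other windows of these genes do, with a GC box for Srsf4 and a GC box and a CCAAT box for Hnrnph1. The motifs searched also included the YY1 site (0.08%), the E-box (CACGTG, 2.66%), the CCAAT box (CCAAT, 15.32%) and the TATA box (TATAAA, 4.75%). Among the 37 matched genes, 23 had a GC box, 14 a CCAAT box, 4 an E-box, 3 an ETS site and 2 a TATA box in at least 1 window. The cAMP response element and the NRF1 site occurred in 1 gene each. These counts are per gene over any of its windows and the shares above are per window, so they cannot be compared. The median GC content was 65.6% over the 37 genes and 55.0% over all windows. A match is a description of the letters only.

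**Figure D1:**
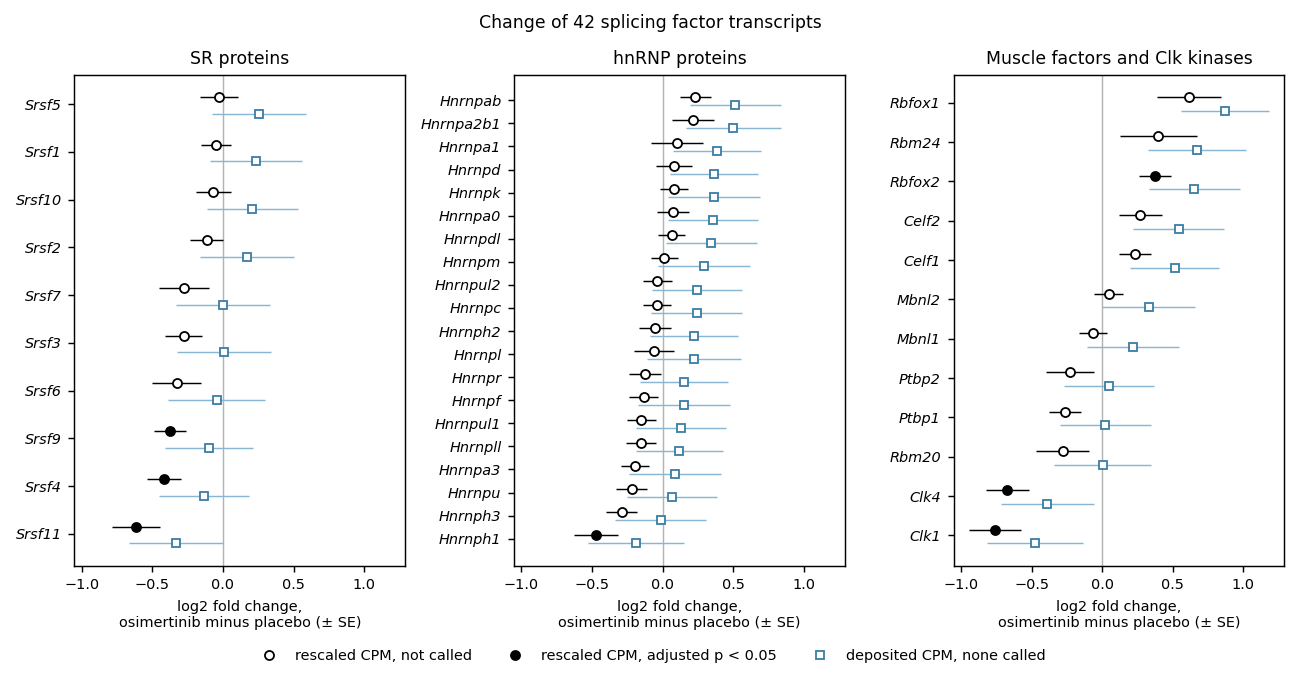
Log2 fold change (osimertinib minus placebo, horizontal axis) of each of the 42 genes with its SE, in 3 panels by class, for rescaled CPM (circles, filled where called) and deposited CPM (squares). The 6 filled circles left of 0 are Clk1, Clk4, Srsf11, Srsf4, Srsf9 and Hnrnph1, the 1 on the right is Rbfox2, and each square lies to the right of its circle.

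Clk1, a kinase that phosphorylates SR proteins (chromosome 1, 58410189 to 58424066, GRCm38, minus strand), had the most negative fold change of the 42. It stood at 206, 230.0, 178, 164 and 153 rescaled CPM in placebo libraries 1 to 5 and at 130.2, 133, 75.7, 132 and 87.0 in osimertinib libraries 1 to 5. Every osimertinib library lay below every placebo library, and osimertinib libraries 3 and 5 were the lowest. The means were 186 ± 31.6 (SD, n = 5) in placebo and 112 ± 27.9 in osimertinib, and the log2 fold change was -0.76 ± 0.19 (limma adjusted p = 0.021). On the deposited scale it was -0.48 ± 0.34 (adjusted p = 0.442), where placebo library 5 read 69.7 CPM against 152 to 309 in the other placebo libraries.

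Clk4, its close relative (chromosome 11, 51261730 to 51281766, plus strand), stood at 80.8, 86.8, 78.2, 66.1 and 70.9 rescaled CPM in placebo libraries 1 to 5 and at 61.1, 55.7, 35.5, 51.5 and 39.4 in osimertinib libraries 1 to 5. The groups did not overlap here either, with the same libraries, osimertinib 3 and 5, at the bottom. Its means were 76.6 ± 8.18 (SD, n = 5) in placebo and 48.7 ± 10.9 in osimertinib, and its log2 fold change was -0.67 ± 0.15 (limma adjusted p = 0.0181, and -0.39 ± 0.33 with 0.533 in the deposited CPM). Clk4 was the one member called in each of the 10 rescaled fits that left out 1 library (adjusted p up to 0.04997), whereas Clk1 lost its call when placebo 1, placebo 2, osimertinib 3 or osimertinib 5 was omitted (up to 0.0573). Of the genes tested, 6.82% had osimertinib wholly below placebo and 5.72% wholly above after rescaling, against 3 of 42 members below (Clk1, Clk4 and Srsf11) and 1 above (Rbfox2). In the libraries without atrial transcripts Clk1 stood at -1.11 ± 0.12 (limma adjusted p = 0.00167) and Clk4 at -0.98 ± 0.13 (0.00271), and in those with them at -0.57 ± 0.17 (0.0608) and -0.51 ± 0.14 (0.0429). This division was made after the values were seen. Its osimertinib libraries without atrial transcripts are 3 and 5, the lowest for both genes, so these values are not separate support for the falls. For the deposited values the shares of separate groups were 0.081% and 5.33%, with no member separate either way. Clk4 overlaps the coding gene BC049762 on the other strand, and the labels' design text names libraries that keep strand. On the same strand, genes not annotated as protein-coding overlap Clk4 (Gm25082), Srsf11 (Gm43362), Srsf4 (A930004J17Rik) and Rbfox2 (4833412C15Rik, Gm49411 and Gm24056). Strand does not separate reads there.

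The other enzymes of SR protein phosphorylation, a list that does not hold Clk1 and Clk4, had 4 of 10 genes lower and none higher, with a median of -0.17. Over all genes tested 10.5% were called lower and 10.4% higher. Both remaining Clk genes were among the 4 in this list, Clk2 at -0.74 ± 0.13 (limma adjusted p = 0.0113) and Clk3 at -0.58 ± 0.14 (0.0197), so that all 4 Clk genes of the mouse were called lower after rescaling. Clk2 went from a mean of 40.0 to 24.0 rescaled CPM and was called in each fit without 1 library, and Clk3 in 7 of these 10 fits. The other falls were Ppp1r10, a nuclear regulator of protein phosphatase 1 (-0.50 ± 0.11, 0.0157), and the cytoplasmic SR protein kinase gene Srpk1 (-0.39 ± 0.13, 0.0474, called in 2 of the 10 fits). The muscle kinase gene Srpk3 stood at -0.08 ± 0.10 (0.594) and Srpk2 at -0.19 ± 0.16 (0.411). None of these 10 genes was called in the deposited CPM, where the 4 log2 fold changes lay between -0.46 and -0.11.

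Srsf11 (p54), an SR-related factor that acts with U2AF (chromosome 3, 158010473 to 158036639, minus strand), stood at 111, 135, 108, 87.6 and 92.5 rescaled CPM in placebo libraries 1 to 5 and at 83.1, 79.4, 53.5, 81.5 and 53.4 in osimertinib libraries 1 to 5. The groups did not overlap, though placebo library 4 and osimertinib library 1 were close. Its means were 107 ± 18.5 (SD, n = 5) in placebo and 70.2 ± 15.3 in osimertinib, at a log2 fold change of -0.62 ± 0.17 (limma adjusted p = 0.0294, and -0.33 ± 0.33 with 0.62 in the deposited CPM). Srsf4 (SRp75, the longest classical SR protein, chromosome 4, 131873617 to 131901706) stood at 56.2, 52.6, 43.2, 49.6 and 55.5 rescaled CPM in placebo libraries 1 to 5 and at 43.6, 36.9, 33.4, 44.6 and 33.7 in osimertinib libraries 1 to 5. Osimertinib libraries 1 and 4 overlapped the lowest placebo library, number 3. Srsf4 changed by -0.42 ± 0.12 on the log2 scale (adjusted p = 0.0326, and -0.14 ± 0.32 deposited, 0.849). Srsf9 (SRp30c, chromosome 5, 115327177 to 115333080) stood at 20.7, 20.5, 19.6, 17.6 and 18.1 rescaled CPM in placebo libraries 1 to 5 and at 17.9, 14.8, 14.2, 15.2 and 12.1 in osimertinib libraries 1 to 5. Only osimertinib library 1 reached the placebo range, and the log2 fold change was -0.37 ± 0.11 (0.0375, and -0.10 ± 0.31 deposited, 0.893). All 3 had 5 of 5 osimertinib libraries below the placebo mean. Omitting placebo 1, placebo 2, osimertinib 3 or osimertinib 5 ended the call of each of these genes (adjusted p up to 0.0816 for Srsf11, 0.0896 for Srsf4 and 0.0934 for Srsf9). Without atrial transcripts the changes were -0.90 ± 0.13 (limma adjusted p = 0.00347) for Srsf11, -0.50 ± 0.12 (0.0186) for Srsf4 and -0.53 ± 0.14 (0.0302) for Srsf9, and with them -0.47 ± 0.16 (0.0839), -0.41 ± 0.12 (0.065) and -0.32 ± 0.14 (0.165). The osimertinib libraries without them, 3 and 5, were the lowest for each of these genes, so these values are not separate support either. Omitting osimertinib 2 ended the call of Srsf4 and Srsf9, placebo 5 that of Srsf4, and placebo 3 that of Srsf9.

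The other 7 SR genes did not pass. Srsf2 (SC35), which marks nuclear speckles, stood at 97.0, 103, 111, 103 and 75.0 rescaled CPM in placebo libraries 1 to 5 and at 86.5, 91.9, 94.1, 90.0 and 84.7 in osimertinib libraries 1 to 5. Placebo library 5 was the lowest of the 10 and the other placebo libraries were the 4 highest, and the log2 fold change was -0.11 ± 0.12 (limma adjusted p = 0.498). Srsf5 (SRp40) stood at 129, 179, 119, 135 and 109.7 rescaled CPM in placebo libraries 1 to 5 and at 139, 127, 119, 138 and 126 in osimertinib libraries 1 to 5. The placebo spread covered every osimertinib library (-0.03 ± 0.13, 0.889). Srsf7 (9G8), an SR protein with a zinc knuckle, stood at 36.9, 35.8, 36.7, 30.2 and 20.4 rescaled CPM in placebo libraries 1 to 5 and at 29.2, 30.05, 20.6, 28.9 and 21.7 in osimertinib libraries 1 to 5. Placebo library 5 lay with the lowest osimertinib libraries (-0.28 ± 0.18, 0.27). Srsf6 (SRp55) was at -0.33 ± 0.17 (0.183) and Srsf3 (SRp20), the smallest SR protein, at -0.28 ± 0.13 (0.134), both with 5 of 5 osimertinib libraries below the placebo mean. Without placebo library 5 Srsf6 was called lower (adjusted p = 0.0317). Srsf1 (SF2/ASF), the founding SR protein, was at -0.05 ± 0.11 and Srsf10, which represses splicing when dephosphorylated, at -0.07 ± 0.12 (adjusted p = 0.758 and 0.712). Before rescaling these 7 lay between -0.04 and 0.25, all under the 0.27 of all genes.

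Among the hnRNP genes only Hnrnph1, whose protein binds runs of G (chromosome 11, 50376990 to 50386528), passed. It stood at 159.9, 186, 168, 134 and 121 rescaled CPM in placebo libraries 1 to 5 and at 123, 129, 99.1, 119 and 84.2 in osimertinib libraries 1 to 5. Placebo library 5 lay below osimertinib libraries 1 and 2, the other placebo libraries lay above all osimertinib libraries, and osimertinib libraries 3 and 5 were again the lowest. The log2 fold change was -0.47 ± 0.15 (limma adjusted p = 0.048, and -0.19 ± 0.34 with 0.802 in the deposited CPM). This call sat at the threshold: it held in 3 of the 10 fits without 1 library, with placebo 4, placebo 5 or osimertinib 1 omitted (the others reached 0.12), and was lost with limma without trend (0.0539), with voom on estimated reads (0.0613) and with no filter (0.0826). Hnrnph1 stood at -0.76 ± 0.15 (limma adjusted p = 0.00896) in the libraries without atrial transcripts, whose osimertinib libraries are the same 3 and 5. In those with them it stood at -0.32 ± 0.17 (0.252). The paralogue Hnrnph3 lay at -0.29 ± 0.11 (0.0689) with 5 of 5 osimertinib libraries below the placebo mean, and was called without placebo library 5 (0.0289), while the third member, Hnrnph2, lay at -0.06 ± 0.11 (0.744).

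Hnrnpa2b1, which sorts and splices many transcripts, stood at 172, 180.4, 229, 183 and 143 rescaled CPM in placebo libraries 1 to 5 and at 179, 222, 243, 176 and 234 in osimertinib libraries 1 to 5. The groups overlapped (0.22 ± 0.15, limma adjusted p = 0.311). Hnrnpu, a nuclear scaffold protein that mouse hearts need for normal splicing, stood at 70.3, 70.9, 71.3, 64.0 and 87.6 rescaled CPM in placebo libraries 1 to 5 and at 71.0, 66.8, 55.5, 58.9 and 59.5 in osimertinib libraries 1 to 5. Placebo library 5 was the highest, and osimertinib libraries 1 and 2 lay above placebo library 4 (-0.22 ± 0.11, 0.171). The most positive hnRNP value was that of Hnrnpab (0.23 ± 0.11, 0.146), with 4 of 5 osimertinib libraries above the placebo mean. The other 14 hnRNP genes lay between -0.20 (Hnrnpa3) and 0.10 (Hnrnpa1), among them the abundant Hnrnpk (0.08 ± 0.10), Hnrnpc (-0.04 ± 0.10), which binds runs of U, Hnrnpm (0.01 ± 0.10) and Hnrnpl (-0.06 ± 0.14). Each of these 4 values was smaller than its SE. Some of these genes have near-identical copies elsewhere in the genome. Transcripts of other genes share 50.2% of the 31-base words of Hnrnpf, 48.3% of Hnrnpa1 and 39.6% of Hnrnpk, so the division of reads there is uncertain, while the share was at most 3% for the 7 called genes.

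Rbfox2, a factor that binds GCATG and is expressed in cardiac muscle from early in development (chromosome 15, 77078990 to 77307004, minus strand), was the one member called higher. It stood at 35.7, 37.7, 30.4, 38.3 and 28.5 rescaled CPM in placebo libraries 1 to 5 and at 41.9, 39.6, 49.1, 44.5 and 45.6 in osimertinib libraries 1 to 5. Every osimertinib library lay above every placebo library. The means were 34.1 ± 4.43 (SD, n = 5) in placebo and 44.1 ± 3.63 in osimertinib, and the log2 fold change was 0.37 ± 0.11 (limma adjusted p = 0.0378, and 0.65 ± 0.32 with 0.225 in the deposited CPM). The call held in 3 of 10 fits without 1 library, with placebo 4, osimertinib 1 or osimertinib 2 omitted (the others reached 0.102), and was lost with no filter on low values (0.0536) and in CPM without mitochondrial, copy and haemoglobin genes (0.336). Rbfox2 was at 0.42 ± 0.14 (limma adjusted p = 0.0571) in the libraries without atrial transcripts and at 0.30 ± 0.14 (0.203) in those with them. The osimertinib libraries without them, 3 and 5, were its highest. Rbfox1, the relative of Rbfox2 in muscle and neurons, stood at 3.13, 6.38, 3.5, 7.67 and 4.85 rescaled CPM in placebo libraries 1 to 5 and at 5.24, 8.11, 7.76, 8.67 and 9.40 in osimertinib libraries 1 to 5. Placebo libraries 2 and 4 overlapped the osimertinib libraries. At 0.62 ± 0.23 it had the most positive log2 fold change of the 42, which did not pass (adjusted p = 0.0697, and 0.87 ± 0.31 with 0.0712 deposited). Rbfox1 was called with placebo 4 or osimertinib 1 omitted (0.0304 at the lowest) and, on the deposited scale, also with placebo 2 omitted.

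Rbm20, whose mutations cause dilated cardiomyopathy, did not pass. It stood at 134, 172, 157, 162 and 91.0 rescaled CPM in placebo libraries 1 to 5 and at 109.9, 147, 99.0, 137 and 92.4 in osimertinib libraries 1 to 5. Placebo library 5 was the lowest of all 10, placebo library 1 lay below osimertinib libraries 2 and 4, and placebo libraries 2, 3 and 4 lay above every osimertinib library. The log2 fold change was -0.28 ± 0.19 (limma adjusted p = 0.297) and 0.00 ± 0.34 in the deposited CPM (0.997). By atrial transcripts it divided into -0.78 ± 0.11 (limma adjusted p = 0.00319), called lower, in the 4 libraries without them and 0.01 ± 0.23 (0.982) in the 6 with them, where placebo library 5 is one of 3 placebo libraries. Those without them were placebo 3 and 4 against osimertinib 3 and 5, the lowest osimertinib libraries of this gene, divided after the values were seen. Rbm24, which heart muscle needs for sarcomere assembly, stood at 20.3, 35.5, 39.9, 58.4 and 17.6 rescaled CPM in placebo libraries 1 to 5 and at 34.9, 42.8, 38.5, 51.1 and 41.0 in osimertinib libraries 1 to 5. It varied most within placebo of the 42 genes, with a coefficient of variation of 48.1% there and 14.5% in osimertinib, and all 5 osimertinib libraries lay above the placebo mean (0.40 ± 0.27, 0.309).

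Mbnl1 and Mbnl2, the muscleblind factors of adult splicing, had values near those of all genes. Mbnl1 stood at 71.6, 80.3, 64.2, 63.0 and 63.3 rescaled CPM in placebo libraries 1 to 5 and at 62.6, 70.0, 64.0, 67.0 and 62.1 in osimertinib libraries 1 to 5. Mbnl2 stood at 63.9, 69.3, 70.4, 61.8 and 55.3 rescaled CPM in placebo libraries 1 to 5 and at 67.5, 68.4, 70.7, 59.8 and 64.1 in osimertinib libraries 1 to 5. Osimertinib lay inside the placebo range for Mbnl2 except library 3, just above it, and for Mbnl1 except libraries 1 and 5, just below it (-0.07 ± 0.10 and 0.05 ± 0.10, limma adjusted p = 0.66 and 0.766). Celf1, which acts against Mbnl proteins and is high in the fetal heart, stood at 24.9, 24.1, 23.0, 28.9 and 22.8 rescaled CPM in placebo libraries 1 to 5 and at 24.4, 31.7, 33.6, 29.0 and 27.4 in osimertinib libraries 1 to 5. All osimertinib libraries but number 1 lay above the placebo mean (0.23 ± 0.11, 0.144), and Celf2 lay at 0.27 ± 0.15 (0.212). Ptbp1, the polypyrimidine tract binding protein that represses muscle exons, stood at 71.7, 54.2, 61.3, 61.5 and 66.4 rescaled CPM in placebo libraries 1 to 5 and at 61.8, 50.5, 51.4, 54.1 and 45.0 in osimertinib libraries 1 to 5. All 5 osimertinib libraries lay below the placebo mean, and osimertinib library 1 lay above placebo libraries 2 to 4 (-0.26 ± 0.11, 0.111), and Ptbp2 lay at -0.23 ± 0.17 (0.349). In the deposited CPM the 10 muscle factors other than the kinases lay between 0.00 (Rbm20) and 0.87 (Rbfox1).

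**Figure D2:**
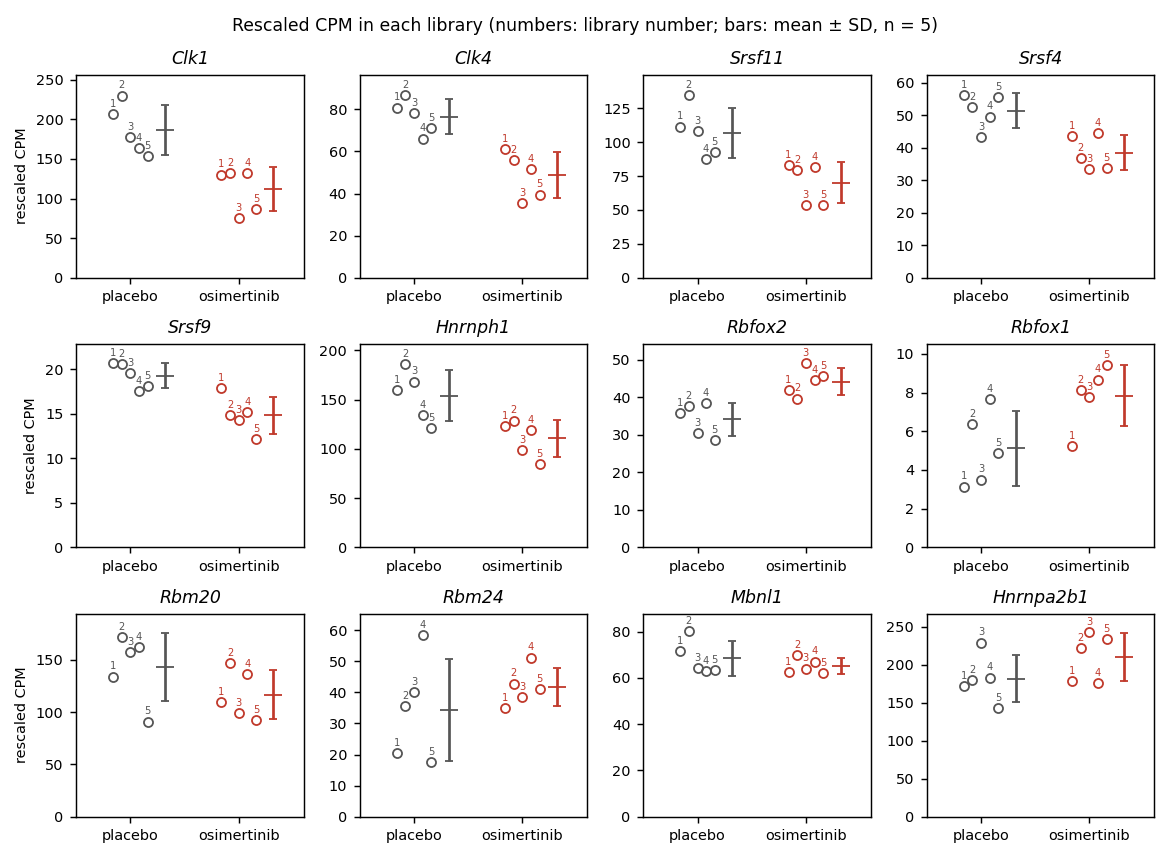
Rescaled CPM (vertical axis, from 0) of 12 of the genes in each library, with the number from the sample title beside each circle and the mean ± SD (n = 5) beside each group. Clk1, Clk4 and Srsf11 have all osimertinib libraries below all placebo libraries, Rbfox2 has them above, and Rbm20, Rbm24, Mbnl1 and Hnrnpa2b1 overlap.

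The libraries of a group differed among themselves in a shared way. The highest value of an SR gene was always in placebo library 1, 2 or 3, and the lowest was in placebo library 5 for 5 genes, osimertinib library 5 for 4 and osimertinib library 3 for 1. As a mean over the 10 SR genes of log2(rescaled CPM + 0.5), centred on each gene's mean, placebo libraries 1 to 5 stood at 0.17, 0.33, 0.18, 0.12 and -0.16, and osimertinib libraries 1 to 5 at -0.03, -0.02, -0.25, -0.03 and -0.32. The groups overlapped through placebo library 5 alone. The same mean over the 20 hnRNP genes ran from -0.06 to 0.08 in placebo and from -0.05 to -0.01 in osimertinib. The median coefficient of variation of the hnRNP genes was 10.2% in placebo and 8.19% in osimertinib, against 15% and 13.3% for the SR genes and 15% and 13.4% for the muscle factors and kinases.

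**Figure D3:**
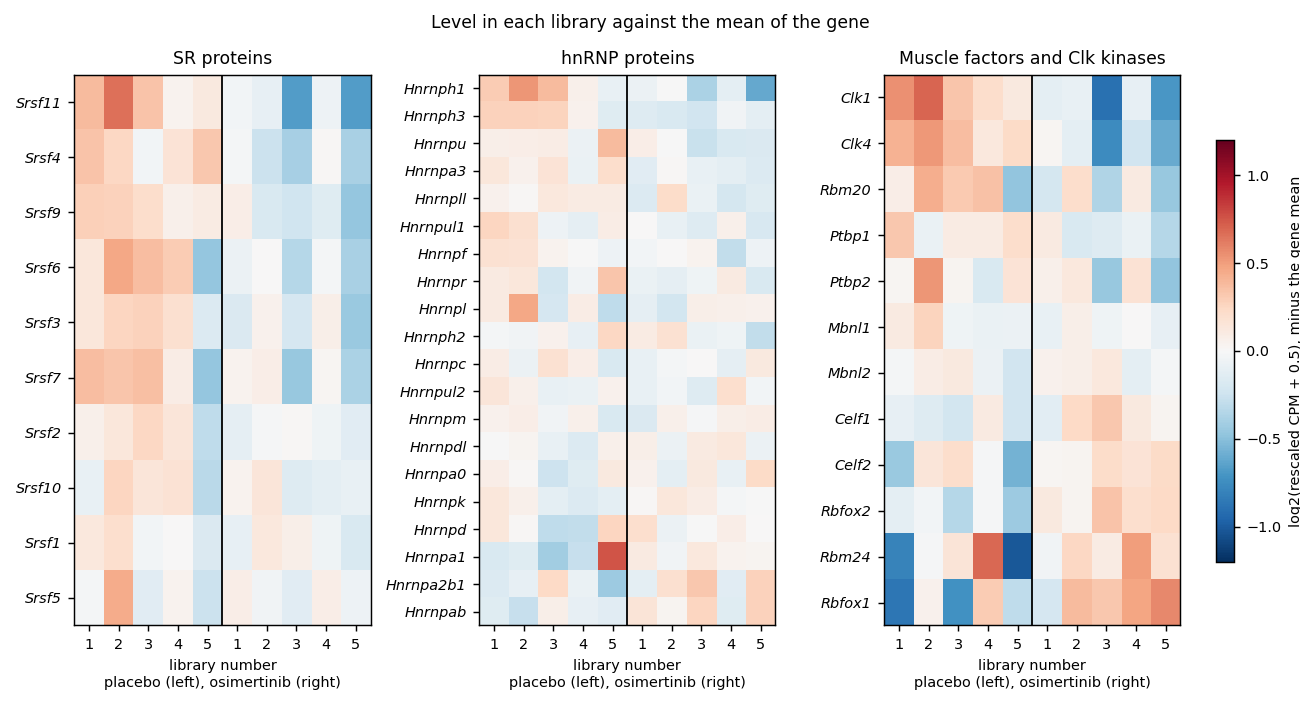
Level of each gene (rows) in each library (columns, placebo left and osimertinib right of the line) as log2(rescaled CPM + 0.5) minus the gene's mean, from blue (lower) to red (higher). Clk1, Clk4 and Srsf11 are red or pale in placebo and bluest in osimertinib libraries 3 and 5, most of the hnRNP panel is pale, and Hnrnpa1 stands out in placebo library 5.

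Cell type markers moved beside these genes. The 12 cardiomyocyte markers were all detected, 3 of them called higher after rescaling and 9 in the deposited CPM, and their summed level ran from 16138 to 43620.4 in placebo and 35811 to 65640.3 in osimertinib (rescaled CPM), with osimertinib libraries 3 and 5 the highest of all at 59283 and 65640.3. These were also the libraries with the lowest Clk1, Clk4, Srsf11 and Hnrnph1, and the osimertinib libraries without atrial transcripts. Of 10 endothelial markers 3 were lower (none in the deposited CPM), at a sum of 2641 to 3679 in placebo and 2128 to 2671 in osimertinib. Of 10 fibroblast markers 1 was higher on either scale (1266 to 1921 in placebo and 1869.9 to 4455 in osimertinib), and 2 of 10 macrophage and monocyte markers were higher after rescaling and none before (172 to 257 in placebo and 244 to 324 in osimertinib). Of 7 atrial markers none was called after rescaling and 2 were higher in the deposited CPM (Nppa and Dkk3), and Bmp10 was at 0 in every library (summed level, nearly all of it Nppa in the libraries without Myl7, 499 to 1387 in placebo and 696 to 4559.9 in osimertinib), and the 10 smooth muscle and pericyte markers had none called on either scale (484 to 754 in placebo and 585 to 937 in osimertinib). Of the erythroid, lymphocyte, neutrophil, Schwann and neural, and adipocyte markers 15 of 30 were high enough to test, and none was called after rescaling and 1, the adipocyte gene Cidec, was higher in the deposited CPM. Their summed levels ran from 169.8 to 493 in placebo and 71.8 to 626 in osimertinib for erythroid cells, 2.10 to 4.36 in placebo and 2.61 to 4.70 in osimertinib for lymphocytes, 1.24 to 10.4 in placebo and 2.48 to 7.87 in osimertinib for neutrophils, 10.4 to 28.8 in placebo and 7.43 to 33.2 in osimertinib for Schwann and neural cells, and 16.4 to 26.3 in placebo and 14.9 to 28.3 in osimertinib for adipocytes. The part of these cell types in the changes above was not tested, and in tissue RNA fewer cells of a type and less RNA per cell cannot be told apart.

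Levels of different genes were compared per kb of annotated exonic sequence. By this measure the highest of the 42 were Srsf5, Srsf6, Srsf2 and Hnrnpf, at 33.1 ± 4.72, 32.1 ± 7.19, 31.6 ± 3.5 and 31.4 ± 2.83 rescaled CPM per kb (SD over all 10 libraries), which do not differ beyond their spread. Hnrnpa2b1 and Hnrnpab followed at 29.8 ± 5.02 and 27.5 ± 3.64. In placebo Clk1 stood at 22.9 ± 3.88 and Rbm20 at 21.1 ± 4.77, and in osimertinib at 13.7 ± 3.43 and 17.2 ± 3.49 (SD, n = 5). Their means lay above those of the other muscle factors in both groups, and they were not apart from each other beyond their spread. In osimertinib Clk1 was not apart beyond its spread from Rbm24 (11.9 ± 1.74) or Ptbp1 (11.1 ± 1.29) either. Over all 10 libraries Clk4 stood at 10.8 ± 2.98 and Rbm24 at 10.9 ± 3.53. Mbnl2, Rbfox2, Mbnl1 and Celf1 lay between 5.43 and 3.20, and Rbfox1, Hnrnpr, Hnrnpll and Celf2 were the lowest, from 1.47 to 0.685. The length counts every annotated exon of a gene, so genes with long untranslated exons read low. Transcripts of other genes share 36% of the 31-base words of Srsf5 and 37.6% of those of Srsf3, and none of Srsf2 or Srsf6, so the place of Srsf5 is uncertain.

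**Figure D4:**
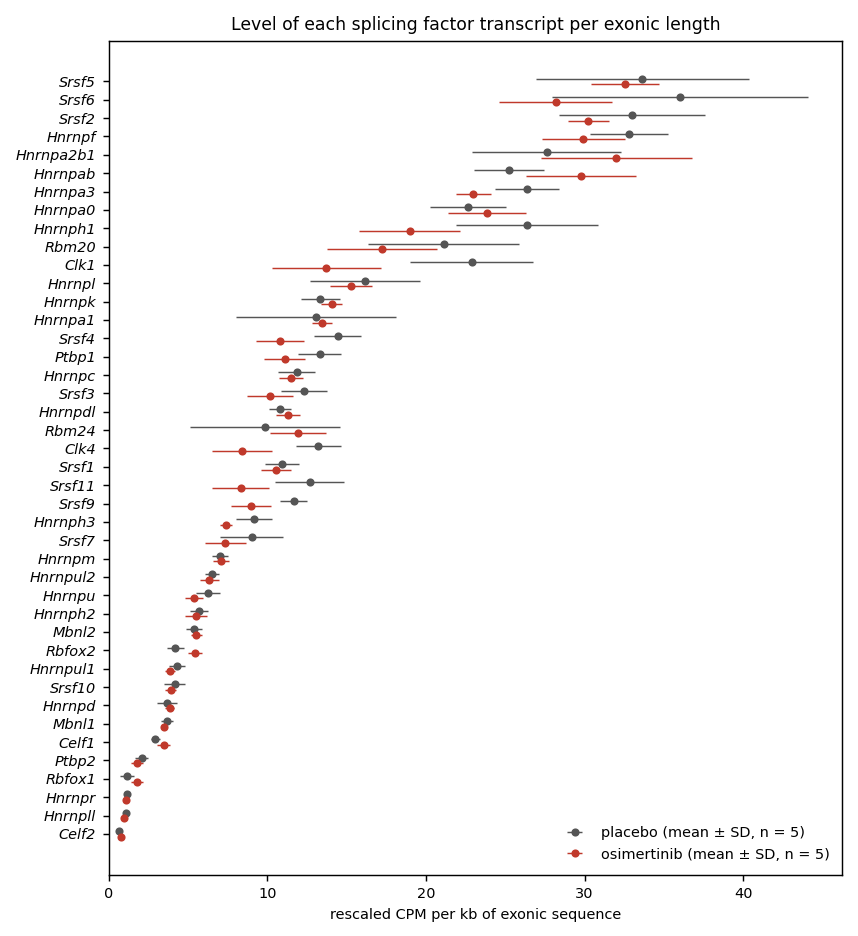
Rescaled CPM per kb of exonic sequence (horizontal axis) of each gene as mean ± SD (n = 5) in placebo and osimertinib, ordered by the mean of all libraries. Srsf5, Srsf6 and Srsf2 are at the top and Celf2 at the bottom, and the means of Clk1, Clk4, Srsf11 and Hnrnph1 are apart.

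The rest of the splicing machinery was read from lists of related genes. Each count is read against all genes tested, of which 10.5% were called lower and 10.4% higher. SR-related proteins, which carry arginine and serine rich stretches but are not classical SR proteins, had 10 of 26 lower and none higher, with a median of -0.33 against 0.01 for all genes. The exon activators Tra2a and Tra2b fell by 0.87 ± 0.19 and 0.52 ± 0.12 (limma adjusted p = 0.0162 and 0.0174), and Acin1, a factor bound at exon junctions, by 0.66 ± 0.14 (0.0162). Of 42 other sequence-specific regulators tested 8 were lower and none higher, with a median of -0.03, and the smallest p were those of Rbm10 (-0.73 ± 0.14, 0.0132), its relative Rbm6 (-0.64 ± 0.13, 0.0151) and Nova2 (-0.76 ± 0.16, 0.0152), which is known from neurons and endothelium. Factors of the exon junction and of nonsense-mediated decay, the pathway that removes transcripts with early stops, had 4 of 15 lower, among them Upf3a (-0.48 ± 0.11), Smg9 (-0.53 ± 0.12) and Casc3 (-0.30 ± 0.09), and none higher (median -0.14).

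The core of the spliceosome was read in 4 lists, against 10.5% of all genes tested called lower and 10.4% higher. The falls of 1 of 11 and 3 of 25 below lie near that share, and the lists are small. The Sm and U1 proteins, which sit on the small nuclear RNAs, had 1 of 11 lower, the U1 gene Snrnp70 (-0.42 ± 0.11, limma adjusted p = 0.0226), and 2 higher, Snrpn (0.84 ± 0.21, 0.0238) and Snrpd3 (0.53 ± 0.17, 0.0416), with a median of 0.24. The U2 and U2AF genes, which define the branch point and the end of the intron, had 3 of 17 lower and none higher, Sf1 (-0.43 ± 0.12), Sf3b1 (-0.65 ± 0.18) and U2af2 (-0.38 ± 0.11), at a median of -0.02. The U4/U6.U5 and LSm genes had 3 of 25 lower, Prpf38b (-0.68 ± 0.17), Sart3 (-0.42 ± 0.11) and Ddx23 (-0.28 ± 0.08), and 1 higher, Snu13 (0.41 ± 0.12), at a median of 0.03. The Prp19 complex and the helicases had 4 of 20 lower, including Ddx46 (-0.47 ± 0.12), Dhx16 (-0.44 ± 0.13) and Ddx39b (-0.31 ± 0.10), and 1 higher, the ubiquitin ligase gene Prpf19 (0.88 ± 0.21, 0.021), at a median of -0.02. Of 12 genes of SR protein import and messenger RNA export 2 were lower, Thoc1 (-0.56 ± 0.11, 0.0132) and Nxf1 (-0.39 ± 0.11, 0.0276), and none higher.

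Of 19 heart transcripts known to be spliced under Rbm20, 4 were higher and 2 lower at the level of the whole gene, with a median of 0.22. Over all genes tested 10.4% were called higher and 10.5% lower, so the falls lie near that share. The 12 cardiomyocyte markers, with which this list shares Tnnt2 and Ryr2, were all positive at a median of 0.95. Whether these transcripts moved apart from other cardiomyocyte genes was not tested. Mlip (1.00 ± 0.24), the Z-disc gene Ldb3 (0.74 ± 0.22), Tpm1 (1.06 ± 0.33) and the calcium release gene Trdn (0.73 ± 0.23) were higher, and the calcium channel gene Cacna1c (-0.47 ± 0.11) and Lrrfip1 (-0.62 ± 0.19) were lower. Titin itself, Ttn, stood at 0.04 ± 0.16 (limma adjusted p = 0.873) and Camk2d at 0.31 ± 0.16 (0.171). Of 8 long noncoding RNAs tested 2 were lower, Airn (-0.67 ± 0.14) and Meg3 (-1.22 ± 0.29), at a list median of -0.47. Neat1 (-0.53 ± 0.24, limma adjusted p = 0.126) and Malat1 (0.42 ± 0.38, 0.441) did not pass.

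In all, the lists held 205 tested genes outside the 42, of which 43 were called lower (10.5% of all genes tested were) and 8 higher (10.4%) after rescaling. With the deposited CPM limma called 0 lower and 6 higher, and gave an unadjusted p under 0.05 to 22. Clk2, Ppp1r10, Tra2a, Tra2b, Acin1, Rbm10, Rbm6, Nova2, Ewsr1, Thoc1 and Airn were called lower in each of the 10 rescaled fits without 1 library. Omitting placebo 1 left 19 falls, placebo 2 left 15, osimertinib 3 left 11 and osimertinib 5 left 15. Over all 12350 genes the same fits left 491, 477, 303 and 410 falls, against 1291 with all 10 libraries. No rise was called with placebo 1, placebo 2 or osimertinib 3 omitted, 1 was with osimertinib 5 omitted and 4 with osimertinib 2 omitted, while 13 were with placebo 3 omitted. Over all 12350 genes the rises in these fits numbered 373, 317, 218, 296, 843 and 1555, against 1283 with all 10 libraries. The libraries without atrial transcripts gave 57 lower and 14 higher, those with them 11 and 7, and the fit with this term 56 and 22. Over all 12350 genes the same fits called 1770 lower and 1682 higher, 468 and 885, and 1931 and 2397. Over the 42 genes, each fit with placebo 1, placebo 2, osimertinib 3 or osimertinib 5 omitted called 1 lower, Clk4. Without osimertinib library 2, 3 were called lower. Over all genes tested these fits also called fewer, with 947 lower without osimertinib library 2 and the falls given above in the others.

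**Figure D5:**
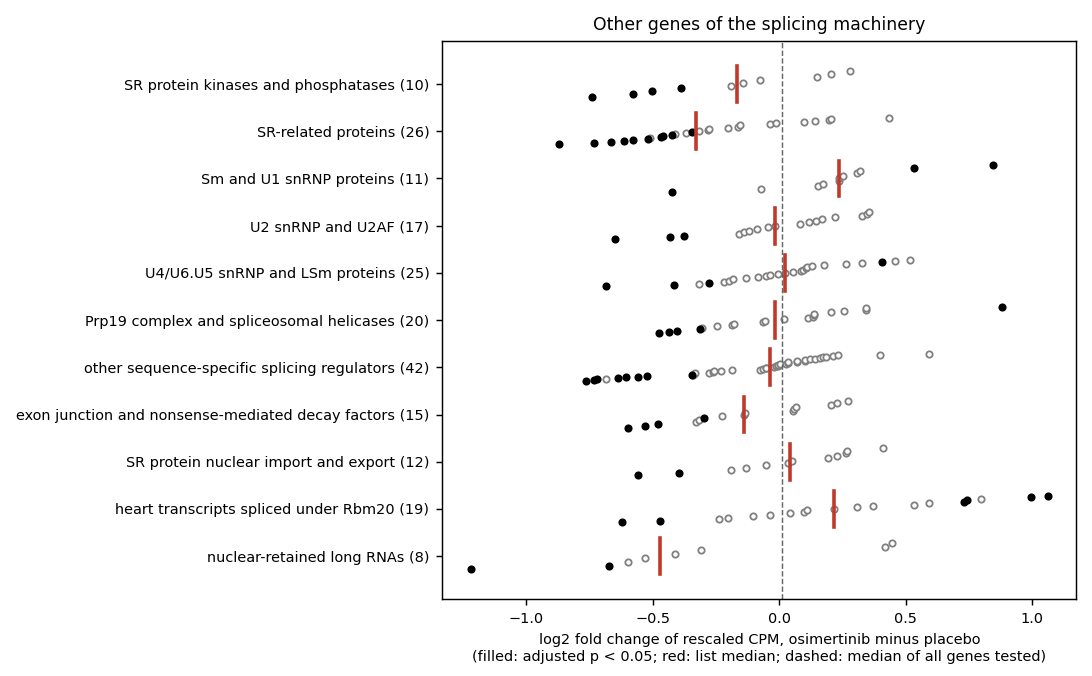
Log2 fold change of rescaled CPM (osimertinib minus placebo, horizontal axis) of each tested gene in 11 lists, filled where called, with the list median as a red bar and the median of all genes tested as a dashed line. Filled circles lie left of the line for the SR-related proteins and kinases, and on both sides for the Sm and U1 proteins, the U4/U6.U5 and LSm proteins, the Prp19 complex and the transcripts spliced under Rbm20.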

How the data were processed

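RNA-seq of 10 left ventricle libraries was analysed from 1 deposited table of CPM per gene. The labels' design text names poly(A) selection, strand-specific libraries, STAR, RSEM, GRCm38 and limma with voom, with no versions, whereas the submitters' processing notes list cutadapt 1.9, HISAT2 2.0.4, StringTie 1.3.4d, DESeq2 and hg38. The deposited CPM sum to 1000000 per library. Their steps gave back whole reads for most but not all low values, so no count test was the main one. Voom on estimated reads was run as an alternative. Groups came from the treatment label and columns were matched by library name. Of the gene IDs 98.8% matched GENCODE M21 (GRCm38).

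The members and gene lists, the rescaling and the tests were chosen with earlier results of these data known. CPM were divided by median-ratio size factors, log2-transformed with a pseudocount of 0.5, and tested with limma 3.58.1 in R 4.3.3 (trend, two-sided, Benjamini-Hochberg over 12350 genes with at least 1 CPM in 5 libraries). All 42 members are accounted for, and several were set to be given in every library, with the called ones of lowest p in each class. From each other list the up to 3 called genes of lowest p in each direction were named. Srpk1, Srpk2, Srpk3, Trdn, Ttn, Camk2d, Neat1, Malat1 and Ewsr1 were added after their values were seen. The pipeline was tested on simulated data. Alternatives were the deposited CPM, other scalings, pseudocounts, filters and variance models, the replicate number as a block, and each library left out. Fits by atrial transcripts were added after seeing the data.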

Additional observations from a re-analysis of the deposited data

Results flagged for a closer look

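In 84 groups of 5 libraries (each of the 42 genes in each group) the most extreme library was set against the others with Dixon's criterion at 0.71 of the range, which chance passes in about 5% of groups. Hnrnpa1 in placebo library 5 stood at 69.4 rescaled CPM, against 30.4 to 36.9 in the other placebo libraries, a gap of 0.835 of the range. In the deposited CPM, before division by 0.455, it read 31.5, inside the 31.2 to 49.6 of the other placebo libraries. Without that library Hnrnpa1 was called higher under osimertinib, at a log2 fold change of 0.31 (limma adjusted p = 0.0462), against 0.10 with it. Transcripts of other genes share 48.3% of its 31-base words, and this library also had the largest mitochondrial share (83.0%). The part of either in this value was not tested. Hnrnpll in osimertinib library 2 stood at 14.1 rescaled CPM, against 10.3 to 11.4 in the other osimertinib libraries, a gap of 0.724 of the range.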

How the results depend on the processing

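The deposited CPM called 0 members lower and 0 higher, against 6 and 1 after rescaling, and kept the direction of 22 of 42. With no filter 3 were lower and 0 higher. CPM without mitochondrial, copy and haemoglobin genes called 7 lower and 0 higher, where the median of all genes was -0.17. Quantile normalization, both pseudocounts and a mean of at least 5 CPM called 6 and 1, limma without trend and voom 5 and 1, and array weights 7 and 1. Leaving out 1 library gave 1 to 7 lower and 0 to 2 higher after rescaling, and 0 lower and 0 to 1 higher in the deposited CPM. Over all 12350 genes these fits gave 303 to 1363 lower and 218 to 1555 higher after rescaling. In the deposited CPM they gave 5 to 238 lower and 301 to 1118 higher. For the 205 genes of the other lists (43 lower, 8 higher), the deposited CPM gave 0 and 6, no filter 27 and 3, CPM without mitochondrial, copy and haemoglobin genes 51 and 5, and array weights 46 and 14. Leaving out 1 library gave 11 to 42 lower and 0 to 13 higher, and 0 to 4 lower and 2 to 8 higher in the deposited CPM. In the deposited CPM without placebo library 2, the log2 fold changes turned positive in Srsf4 (0.0112), Srsf9 (0.06) and Hnrnph1 (0.0242). The median of all genes in that fit was 0.41, and each of these values lay under it. By atrial transcripts, chosen after seeing the data, the libraries without them gave 11 and 1 members and 57 and 14 list genes lower and higher, those with them 1 and 0, and 11 and 7, and the fit with this term 7 and 2, and 56 and 22. Over all 12350 genes the fits by atrial transcripts called, in the same order, 1770 lower and 1682 higher, 468 and 885, and 1931 and 2397. The cause of these differences was not tested.

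With the replicate number as a block 6 members were lower and 1 higher, which was Rbfox1 (limma adjusted p = 0.0283) in place of Rbfox2 (0.0577), and the other lists had 40 lower and 12 higher. Same-numbered samples correlated at 0.43, 0.24, 0.46, -0.34 and -0.16 in their deviations from the group means, not every sample correlated best with its own number, and the numbers were not treated as pairs.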
